A study of Mus musculus with 12 samples.

Results

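Angiopoietins and vascular endothelial growth factors (VEGFs) are the ligands that build and maintain blood vessels, and 10 of the genes of these families and of their receptors were followed here through 12 mouse hearts. The members are the ligands Angpt1, Angpt2, Vegfa, Vegfb and Vegfc, the receptors Tek, Tie1, Kdr and Flt1, and the co-receptor Nrp1. Every probe set that the platform annotation assigns to one of these genes alone was taken, which gave 21 of the 45037 probe sets on the array. The probe set of highest average signal stands for its gene unless another is named, and all 10 genes were then among the 11189 genes tested. The family was selected with its signals in these hearts already known: Angpt1 had been picked by its lower signal in ILKR211A Tg than in WT hearts. The values of that comparison, and those of Angpt1 between the transgenic lines, are therefore described with no p. Where the text says whether they passed a threshold, this describes the fit and is not support for a difference.

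Left ventricular RNA was hybridized to 1 array per mouse, from 3 ILKR211A Tg mice, 3 ILKS343D Tg mice and 6 WT littermates, all C57BL/6 and 8-9 weeks old. Both transgenes overexpress mutant human integrin-linked kinase (ILK) in the heart, with an activation-resistant change in ILKR211A and a constitutively active one in ILKS343D; the study describes the overexpression as cardiac-specific. The WT hearts carry a first and a second series of replicate numbers, told apart by the letter case of their titles and called the first and second WT set here. The sources do not tie a set to a line, so the sets are matched to the lines only by heart number: hearts 1 to 6 hold the ILKS343D Tg mice and the first WT set while hearts 7 to 12 hold the ILKR211A Tg mice and the second WT set. Replicate 1 of the first WT set is labelled male and all others are labelled female, and no label names an operation. The methods of the paper describe R211A genotypes with and without myocardial infarction for these hybridizations, which conflicts with the labels, so whether any heart was operated on is open to doubt and the groups here are those of the labels. They are called R211A, S343D and WT hearts below.

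In the angiopoietin pathway, Angpt1 is the ligand that activates Tek, a receptor kinase of endothelial cells, and so keeps vessels quiet and closed, whereas Angpt2 binds the same receptor and can oppose this. Tie1 is a related receptor that pairs with Tek. In the VEGF pathway, Vegfa drives vessel growth through Kdr, Flt1 binds Vegfa and Vegfb and holds Vegfa back from Kdr, Nrp1 is a co-receptor, and Vegfc acts mainly on lymphatic vessels. In the heart, cardiomyocytes are a main source of Vegfa and Vegfb, and the receptors Tek, Tie1, Kdr and Flt1 are markers of the endothelium.

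The RefSeq promoter table of GRCm38.p6 holds a start site for 8 of the 10 members, all but Angpt1 and Angpt2. The 250 bases before the start sites of Kdr and Flt1 are printed because the signals of this receptor pair varied together from heart to heart more closely than those of any other pair of members. The Kdr stretch lies at chr5:75978456-75978705 and the Flt1 stretch at chr5:147726012-147726261, both on the minus strand and both written along the gene. Capitals mark GGAA or its reverse complement TTCC, the core recognised by ETS family factors, which are known regulators of endothelial genes.
Kdr: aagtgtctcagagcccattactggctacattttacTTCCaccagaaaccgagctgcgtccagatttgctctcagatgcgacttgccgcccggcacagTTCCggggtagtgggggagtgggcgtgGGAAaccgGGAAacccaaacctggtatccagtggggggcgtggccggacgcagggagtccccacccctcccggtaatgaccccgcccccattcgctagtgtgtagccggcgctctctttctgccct
Flt1: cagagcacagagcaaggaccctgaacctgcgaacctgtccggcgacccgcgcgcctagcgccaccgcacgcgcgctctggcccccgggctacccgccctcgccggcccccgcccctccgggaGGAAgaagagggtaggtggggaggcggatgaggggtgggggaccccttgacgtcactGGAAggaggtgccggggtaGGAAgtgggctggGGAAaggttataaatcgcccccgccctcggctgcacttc
Each holds 4 copies, which do not overlap. At least 4 copies were found in 33.4% of the 32851 promoter stretches of this length, so such a number is common. The Tie1 stretch holds 7, and at least 7 were found in 3.82% of all stretches, while the Vegfb and Vegfc stretches hold 1 each. These are matches of letters and no binding was measured.

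The transgene was checked first on Ilk itself. Its probe set 1449942_a_at had a mean signal of 8799 ± 682 in R211A hearts, 3515 ± 434 in S343D hearts and 601 ± 39.0 in WT hearts (SD, n = 3, 3 and 6), 3.87 and 2.54 above WT on the log2 scale (SE 0.0794 each). The array libraries were alike otherwise, with correlations of log2 signal between 0.969 and 0.983 over the tested probe sets. Among the defining markers of the tissue, the cardiomyocyte genes Myh6, Tnnt2 and Actc1 and the endothelial genes Pecam1 and Cdh5 were all above the filter on low signals.

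Angpt1 was the member with the lowest signals in R211A hearts relative to the other groups. Its probe set 1439066_at had signals of 408, 340 and 316 in R211A hearts. The S343D hearts had 838, 809 and 701. The WT hearts had 585, 586 and 493 in the second set and 640, 742 and 589 in the first. Each R211A heart lay below every S343D and every WT heart, and the S343D hearts lay high, with their lowest at 701 under the highest WT heart at 742.

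The mean signal of this probe set was 354 ± 47.8 in R211A hearts and 606 ± 82.0 in WT hearts (SD, n = 3 and 6), a log2 difference of -0.77 (SE 0.114), or 1.71-fold lower. This is the value that Angpt1 was selected on. In bulk tissue, fewer cells of a type and less RNA per cell cannot be told apart. Against the second WT set alone, with hearts numbered in the same range, the difference was -0.65 (SE 0.118), and against the first set alone it was -0.89 (SE 0.118). Without R211A replicate 2 it was -0.75 and without replicate 3 it was -0.69, and in either case Angpt1 no longer passed the threshold over all probe sets. It also missed the threshold against the second WT set alone. With same-numbered hearts of each range as a block, an alternative chosen after seeing the data, the same difference of -0.65 was called. Since Angpt1 was selected on R211A against WT hearts, nothing is read from these calls.

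The other Angpt1 probe set, 1421441_at, was read from different probes on the same arrays. It had signals of 133, 135 and 92.3 in R211A hearts, and of 180, 208 and 191 in S343D hearts. In WT hearts it had 172, 177 and 158 in the second set and 147, 198 and 164 in the first. Here again the R211A hearts lay below every other heart, with a log2 difference from WT of -0.51 (SE 0.128), or 1.43-fold lower. Across the 12 hearts the log2 signals of both probe sets had a Pearson r of 0.887, and 0.612 after the mean of each of the 4 groups was subtracted, given as a description since both share their RNA and their array.

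**Figure D1:**
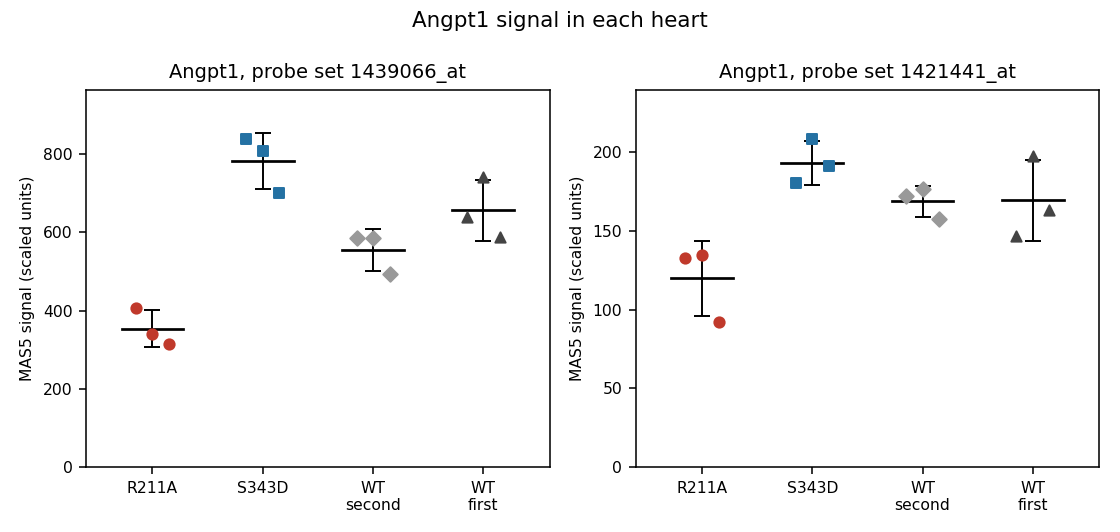
MAS5 signal (y axis, scaled units) of both Angpt1 probe sets in each heart, by group (x axis); each point is 1 heart, the horizontal line the mean and the bar the SD of 3 hearts. On both probe sets the 3 R211A hearts (316 to 408 on the left, 92.3 to 135 on the right) sit below all other hearts.

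In S343D hearts, Angpt1 1439066_at had a mean of 782 ± 72.3, against 606 ± 82.0 in WT hearts (SD, n = 3 and 6). The log2 difference was 0.38 (95% interval 0.13 to 0.62). It did not pass limma's test over all tested probe sets (adjusted p = 0.995). The two-sided exact permutation test over the 84 splits of 3 against 6 hearts gave p = 0.0238, where 0.0119 is the smallest p this design allows and 10 genes were tested. This comparison shares the WT hearts with the one that Angpt1 was selected on. Against the first WT set alone, numbered in the same range, the difference was 0.25, and against the second it was 0.50. On 1421441_at it was 0.20 (95% interval -0.08 to 0.47).

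Between the lines, R211A hearts were 2.21-fold lower than S343D hearts on 1439066_at, a log2 difference of -1.15 (SE 0.131), and 1.63-fold lower on 1421441_at, a difference of -0.71 (SE 0.148). The R211A hearts are those that Angpt1 was selected on. With each line set against the WT set in its own range of heart numbers, the difference between the lines on 1439066_at was -0.91 (SE 0.167), and Angpt1 was then no longer called. The WT sets themselves did not overlap on this probe set: the second set averaged 555 ± 53.5 and the first set 657 ± 78.2 (SD, n = 3 each), a log2 difference of -0.24 (95% interval -0.50 to 0.01; limma adjusted p = 0.640). Their nearest hearts were 586 in the second set and 589 in the first, and 12.2% of all genes did not overlap between the sets. On 1421441_at the sets had the same mean of 169, with a log2 difference of 0.01.

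Angpt2, the ligand that can oppose Angpt1, had low signals that spread widely within each group. Probe set 1448831_at had 51.2, 55.9 and 64.0 in R211A hearts and 48.3, 55.5 and 37.5 in S343D hearts. The WT hearts ranged between 33.9 and 67.0, with a median of 57.4, so all groups overlapped. The log2 difference from WT was 0.11 in R211A hearts (SE 0.221) and -0.18 in S343D hearts (95% interval -0.65 to 0.29; adjusted p = 0.995), intervals that leave room for changes in either direction. Its probe set 1459636_at was the only member probe set below the filter, with signals between 1.54 and 20.6 over all hearts, and was not tested.

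Tek, the receptor of both angiopoietins, had 520, 480 and 504 in R211A hearts and 506, 535 and 584 in S343D hearts. In WT hearts it had 469, 521 and 403 in the second set and 464, 440 and 466 in the first. The S343D hearts lay above the WT hearts except the one at 521, and the R211A hearts lay within the upper end of the WT range. In S343D against WT hearts the log2 difference was 0.24 (95% interval 0.06 to 0.41), or 1.18-fold. It did not pass limma's test over all probe sets (adjusted p = 0.995). The two-sided exact permutation test gave p = 0.0357, where 0.0119 is the smallest p possible and 10 genes were tested. Members other than Angpt1 and Tek had p between 0.107 and 0.786 in this permutation test, and none of its p was corrected for the number of genes. The difference was 0.24 against the first WT set alone and 0.23 against the second. In R211A against WT hearts it was 0.13 (SE 0.0801).

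Tie1, which pairs with Tek, had 328, 453 and 330 in R211A hearts, 331, 286 and 398 in S343D hearts, and between 316 and 384 in WT hearts (median 340). The groups overlapped. R211A replicate 2 lay above every other heart. The log2 difference from WT was 0.09 in R211A hearts (SE 0.122) and -0.04 in S343D hearts (95% interval -0.30 to 0.23; adjusted p = 0.995). Of the 4 members of the angiopoietin pathway, only Angpt1 had a genotype comparison without overlap on its main probe set. These were R211A against WT hearts, where 4.18% of all genes did not overlap, and R211A against S343D hearts, where 14.5% did not. Its S343D and WT hearts overlapped. Angpt1 was selected on the R211A hearts, so nothing is read from this.

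Vegfa, the main ligand for vessel growth, was measured by 2 probe sets. Probe set 1420909_at had 1024, 1241 and 1178 in R211A hearts and 1025, 995 and 1135 in S343D hearts. The WT hearts had 1111, 1394 and 1238 in the second set and 1149, 1054 and 1230 in the first. The lowest heart was S343D replicate 2, and the groups overlapped. The log2 difference of S343D from WT hearts was -0.18 (95% interval -0.37 to 0.01; limma adjusted p = 0.995). Against the first WT set alone this was -0.12, and against the second -0.24. In R211A against WT hearts the difference was -0.06 (SE 0.0876). On 1451959_a_at the differences from WT were 0.09 in R211A hearts and -0.22 in S343D hearts, with S343D replicate 1 lowest of all hearts at 326.

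Vegfb, a ligand of Flt1, had 3323, 3867 and 3415 in R211A hearts, 2946, 3038 and 3420 in S343D hearts, and between 3177 and 3605 in WT hearts (median 3389). The 2 lowest hearts were S343D hearts, whose remaining heart lay within the WT range. R211A against S343D hearts differed by 0.17 on the log2 scale (95% interval 0.01 to 0.34), with a limma adjusted p of 0.569, which did not pass. The difference from WT was 0.06 in R211A hearts (SE 0.0662) and -0.11 in S343D hearts (95% interval -0.25 to 0.03; adjusted p = 0.995). With each line set against the WT set in its own range, the difference between the lines was 0.11 (adjusted p = 0.882).

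Vegfc, the lymphatic ligand, was measured by 3 probe sets that differed from each other. On 1440739_at the hearts lay between 104 and 128 in R211A, 118 and 146 in S343D, and 103 and 129 in WT, with log2 differences from WT of -0.07 and 0.12 for R211A and S343D hearts. On 1439766_x_at these differences were -0.14 and 0.07, and on 1419417_at they were 0.19 and -0.09. None passed in S343D hearts (adjusted p = 0.995 each). The group-centred log2 signals of the 3 probe sets had pairwise r between -0.07 and 0.36 over 12 hearts. On 1419417_at the WT sets did not overlap, with 53.5, 38.8 and 39.9 in the second set against 74.4, 55.8 and 63.0 in the first (log2 difference -0.55, limma adjusted p = 0.597). Nor did they on 1439766_x_at, with 63.3 to 73.9 in the second set and 76.5 to 90.0 in the first (-0.23, limma adjusted p = 0.781). Of all genes, 12.2% did not overlap between the sets. A difference of either line from WT on these 2 probe sets depends on the set it is read against.

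Kdr, the main receptor of Vegfa on endothelial cells, had 602, 633 and 610 in R211A hearts and 521, 540 and 708 in S343D hearts. The WT hearts had 598, 608 and 622 in the second set and 566, 529 and 688 in the first. The groups overlapped throughout, and the highest heart of all was S343D replicate 3, followed by replicate 3 of the first WT set. The log2 difference from WT was 0.04 in R211A hearts (SE 0.0978) and -0.04 in S343D hearts (95% interval -0.25 to 0.17; adjusted p = 0.995).

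Flt1, the receptor that holds Vegfa back, had 382, 400 and 374 on 1419300_at in R211A hearts and 306, 355 and 449 in S343D hearts. The WT hearts had 397, 400 and 385 in the second set and 374, 291 and 464 in the first. As for Kdr, replicate 3 of S343D and of the first WT set were the highest hearts, and S343D replicate 1 and first WT set replicate 2 the lowest. The log2 difference from WT was 0.01 in R211A hearts (SE 0.131) and -0.06 in S343D hearts (95% interval -0.34 to 0.22; adjusted p = 0.995). The other 3 Flt1 probe sets gave differences from WT between -0.0015 and 0.28 in R211A hearts and between -0.07 and 0.07 in S343D hearts. The value of 0.28 belonged to 1451756_at, where R211A replicate 2 had 396 and the other R211A hearts had 257 and 238, against 215 to 262 in WT hearts. On 1454037_a_at, R211A hearts (184 to 187) lay just above S343D hearts (150 to 181), with a log2 difference of 0.18 (limma adjusted p = 0.770). Between the lines 14.5% of all genes did not overlap.

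Nrp1, the co-receptor that also binds semaphorins, was measured by 4 probe sets. On 1448943_at it had 1630, 1588 and 1581 in R211A hearts, 1372, 1810 and 1837 in S343D hearts, and between 1466 and 1969 in WT hearts (median 1742). The log2 difference from WT was -0.10 in R211A hearts (SE 0.0952) and -0.05 in S343D hearts (95% interval -0.25 to 0.15; adjusted p = 0.995). The groups overlapped on this probe set and on 1418084_at and 1448944_at. On 1457198_at, R211A hearts had 415, 390 and 454 and S343D hearts had 515, 478 and 559, which did not overlap (log2 difference -0.30, limma adjusted p = 0.462). The WT sets also did not overlap there, with 422 to 444 in the second set and 446 to 568 in the first. Between the lines 14.5% of all genes did not overlap, and between the WT sets 12.2% did not. With each line set against the WT set in its own range, the difference between the lines was -0.11.

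**Figure D2:**
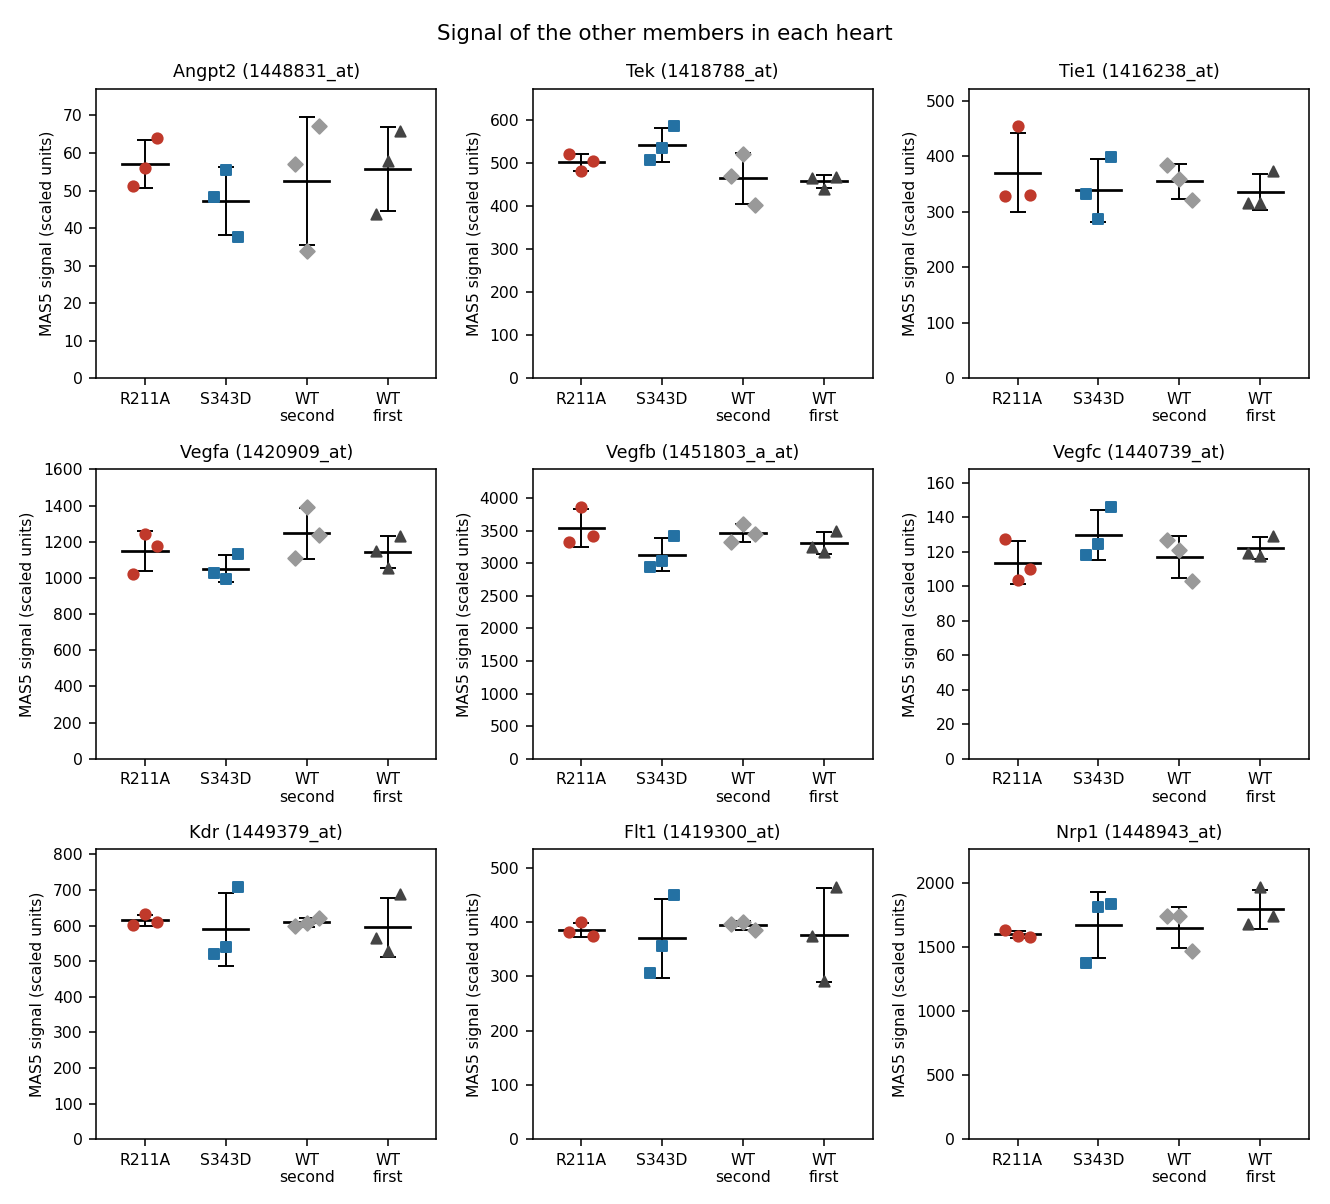
MAS5 signal (y axis, scaled units, from 0) of the main probe set of the other 9 members in each heart, by group (x axis); points are hearts, lines means and bars SDs of 3 hearts. In each panel R211A, S343D and WT hearts overlap, and the spread of Kdr and Flt1 is wide in S343D hearts and the first WT set and narrow in R211A hearts and the second.

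Counted over the 10 members, 1 (Angpt1) was lower and 0 were higher in R211A than in WT hearts at an adjusted p under 0.05, where 0.206% of all 11189 genes were called. At an unadjusted p under 0.05 it was again 1 member against 7.52% of all genes, and the groups did not overlap for 1 member against 4.18% of all genes. Since Angpt1 was selected on this comparison, nothing is read from these counts. The other 9 members had log2 differences between -0.10 and 0.13. The median over the 10 members was 0.02, and that over all tested genes was 0.00.

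In S343D against WT hearts, 0 members passed limma's adjusted threshold, as 0.00894% of all genes did. At an unadjusted p under 0.05 there were 2, Angpt1 and Tek, both higher, where 3.79% of all genes were called. No member had groups that did not overlap, against 1.99% of all genes. Between the lines, 1 member was past the adjusted threshold, Angpt1, with a background of 0.152%, and 2 had an unadjusted p under 0.05, Angpt1 lower and Vegfb higher in R211A hearts, with a background of 7.85%. The groups did not overlap for Angpt1 alone, with a background of 14.5%. The R211A hearts are those that Angpt1 was selected on, so nothing is read from its part in these counts. The median member difference was -0.04 for S343D minus WT hearts and 0.07 for R211A minus S343D hearts, against 0.00 over all genes in both.

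Between the second and the first WT set, 0 members passed by limma at the adjusted threshold (background 0.0179%), and 0 had an unadjusted p under 0.05 (background 7.25%). The sets did not overlap for 1 member, Angpt1, lower in the second set, where 12.2% of all genes did not overlap.

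**Figure D3:**
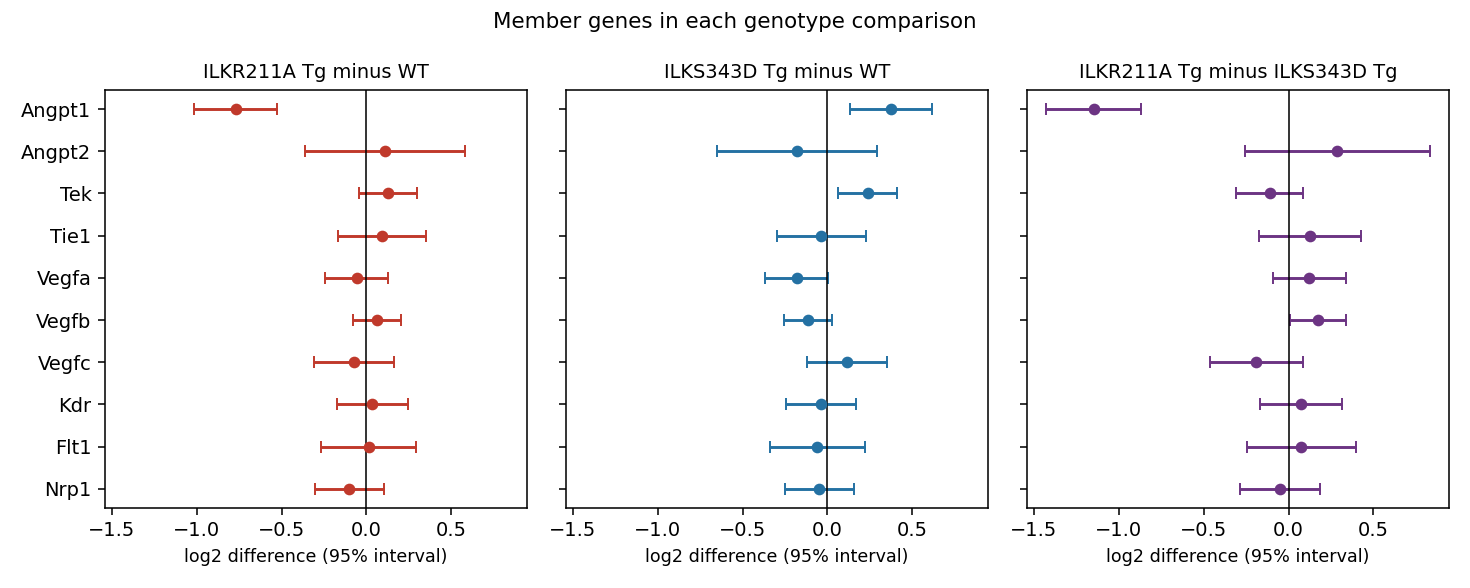
Log2 difference (x axis) with its 95% interval for the main probe set of each member (y axis), for R211A minus WT, S343D minus WT and R211A minus S343D hearts. Angpt1 lies at -0.77, 0.38 and -1.15 and every other member lies between -0.19 and 0.29; the Angpt1 values involving R211A hearts are those it was selected on.

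Some members also varied together from heart to heart within the groups. After the mean of each of the 4 groups was subtracted, Kdr and Flt1 had the highest Pearson r of the 45 pairs of members, 0.924 over 12 hearts, and 0.923 before subtraction. Vegfa and Vegfb came next with 0.829, then Tek and Vegfc with 0.796. Vegfb had 0.790 with Kdr and 0.788 with Tie1. The spread of Kdr and Flt1 also went with the range of heart numbers. The SD of the Kdr signal was 15.9 in R211A hearts and 12.0 in the second WT set, against 103 in S343D hearts and 83.1 in the first WT set (n = 3 each). For Flt1 the SDs were 12.9 and 7.95 in R211A hearts and the second set, against 72.9 and 86.8 in S343D hearts and the first set. The group-centred deviation of Kdr reached 0.277 in S343D hearts and 0.220 in the first set. It reached 0.041 in R211A hearts and 0.030 in the second set. The r of the pair thus rests mainly on S343D hearts and the first WT set. The pattern of SDs was not confined to this pair. Ptprb, the phosphatase that acts on Tek, had 35.8 and 22.5 against 101 and 87.6 in the same order. The endothelial marker Cdh5 (131 and 21.9 against 270 and 171) and the ligand Pdgfb (33.1 and 13.5 against 92.4 and 78.0) showed it too. Tie1, with 71.8 and 31.2 against 56.3 and 32.6, did not show it. Nor did the endothelial marker Esam, with 158 and 19.2 against 119 and 99.8. Genes with and without the pattern were not counted. These are descriptions without a test, since the points share RNA and array, and the endothelial receptors share the cells that carry them. The copies of GGAA or TTCC in the Kdr and Flt1 stretches printed above are 4 in each. Whether these copies have a part in the shared variation was not tested.

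Angpt1 ran the other way. Its group-centred r was -0.69 with Kdr, -0.63 with Vegfa, -0.63 with Flt1 and -0.58 with Vegfb, and the lowest r of all pairs was that of Angpt2 with its receptor Tek, at -0.74. Angpt1 and Tek themselves had an r of 0.131.

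**Figure D4:**
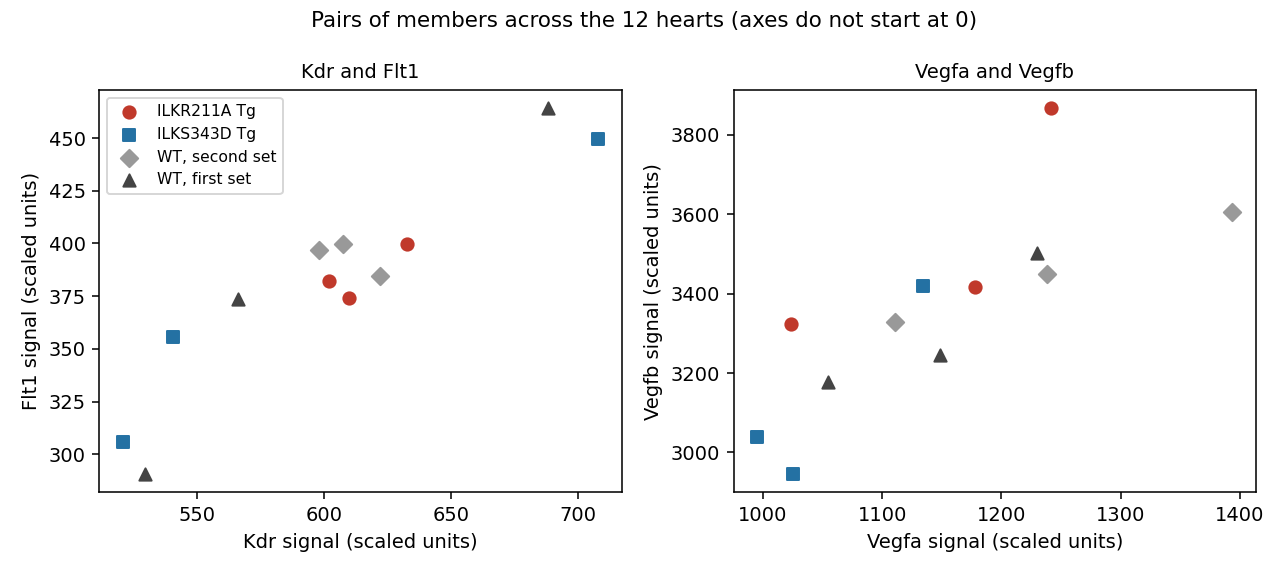
Signal of Flt1 against Kdr (left) and of Vegfb against Vegfa (right) in the 12 hearts, in scaled MAS5 units on axes that do not start at 0; each point is 1 heart and its colour and shape give the group. In the left panel S343D replicate 3 and first WT set replicate 3 are at the upper right, S343D replicate 1 and first WT set replicate 2 at the lower left, and the R211A and second WT set hearts crowd between them.

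Over all 11188 other genes, those whose log2 signal across the 12 hearts was most like that of Angpt1 1439066_at were Casp8ap2 (Pearson r 0.927), Hltf (0.913), Abhd1 (0.913), Usf1 (0.900) and Sh3rf2 (0.894). The most opposite were Pfkl (-0.96), Dnaja4 (-0.89), Hspd1 (-0.88), Hspa4l (-0.88) and Tgfb1 (-0.88). Pfkl encodes the liver form of the glycolytic enzyme phosphofructokinase, and Dnaja4, Hspd1 and Hspa4l encode chaperones or their co-factors. With group means subtracted the highest were Tigd2 (0.948), Fam91a1, Mpi, Tbce and Ppme1, down to 0.901, and the lowest were Pfkl (-0.97), Ptbp3, Cyb5r1, Fnip2 and Ano10, up to -0.90. Pfkl was thus the most opposite gene on both scales, with mean signals of 1521 in R211A, 1216 in S343D and 1273 in WT hearts. Among so many genes some have a high r by the choice of the extremes, and no p is given.

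The other genes of these pathways did not pass the threshold in any comparison. Of 10 further ligands and receptors 8 were above the filter, all but Angpt4, the other angiopoietin of the mouse, and Pgf, a ligand of Flt1. In S343D against WT hearts 0 of these 8 were called by limma, and 0 had an unadjusted p under 0.05. Their median log2 difference was -0.04, and it was 0.06 in R211A against WT hearts. Sema3c, a semaphorin that signals through neuropilins, had the smallest unadjusted p between the lines, with means of 213 in R211A and 277 in S343D hearts and a log2 difference of -0.38 (limma adjusted p = 0.368). Flt4, the receptor of Vegfc, differed by -0.11 between S343D and WT hearts and by 0.13 between R211A and S343D hearts, and Ptprb, the phosphatase that acts on Tek, by 0.01 and 0.06.

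Of the 9 oxygen sensing genes, which control Vegfa transcription, 0 were called in any of the 4 comparisons, with 0 at an unadjusted p under 0.05 in S343D against WT hearts and 0 between the lines. Hif3a, a subunit that can restrain hypoxia-driven transcription, had the largest difference between the lines, 0.46 (limma adjusted p = 0.602), and Epas1 differed by 0.05. Of 11 genes of the signalling below the receptors, 10 had a probe set of their own, all but Ptk2, and 0 were called. Grb2, an adaptor of receptor kinases, was 0.19 higher in R211A than in S343D hearts (limma adjusted p = 0.569), while Akt1 differed by -0.08. Tnip2, a partner of Tek signalling, had the smallest unadjusted p of this list in S343D against WT hearts, with a log2 difference of 0.24 (limma adjusted p = 0.995). Of 12 genes of vessel growth and Notch signalling, 10 were tested and 0 were called, all but Hey2 and Esm1 being above the filter. The Notch target Hey1 had the largest value in S343D against WT hearts, 0.27 (limma adjusted p = 0.995).

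Markers of the cell types that make or receive these ligands were set beside the members. All 10 endothelial markers were tested and 0 were called. Their summed signal lay between 5022 and 6069 in R211A hearts, 4942 and 6195 in S343D hearts and 4956 and 5665 in WT hearts, so the groups overlapped. Eng, an endothelial co-receptor of the TGF-beta family, was 0.24 higher in R211A than in S343D hearts (limma adjusted p = 0.454). Vwf, which endothelial cells store and secrete, was 0.45 higher in S343D than in WT hearts (limma adjusted p = 0.995).

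Pericytes and smooth muscle cells are known sources of Angpt1. Of their 8 markers 0 were called, and 7 of 8 lay above 0 in R211A minus WT hearts, with a median of 0.15. Between the second and the first WT set 6 of 8 lay above 0, with a median of 0.11. Angpt1 lay at -0.77 in R211A minus WT hearts, and the part of these cells in that difference was not tested. Their summed signal was between 11236 and 12141 in R211A hearts and between 10416 and 12434 in WT hearts, and no marker was at 0. Rgs5, a pericyte marker, was the sole member of the list below 0 in R211A minus WT hearts, at -0.17 (SE 0.0706). The 6 fibroblast markers all lay above 0 in both lines against WT, with medians of 0.08 in R211A and 0.15 in S343D hearts. Between the second and the first WT set they all lay below 0, with a median of -0.22, as Angpt1 did. Their summed signal ranged between 8968 and 10836 in the second WT set and between 10442 and 11270 in the first. Their part in the Angpt1 difference between the sets was not tested.

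The 6 cardiomyocyte markers had a median of -0.01 in R211A and -0.04 in S343D hearts against WT. The 3 lymphatic markers had medians of -0.11 and -0.04, and the 5 macrophage markers of -0.02 and 0.15. Of the red blood cell genes, Alas2 alone was tested, with differences of 0.04 and -0.36, while Hba-a1 was below the filter and Hbb-b1 had no probe set of its own. In these 4 lists 0 genes were called by limma in any comparison, and 0 had an unadjusted p under 0.05 in S343D against WT hearts.

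**Figure D5:**
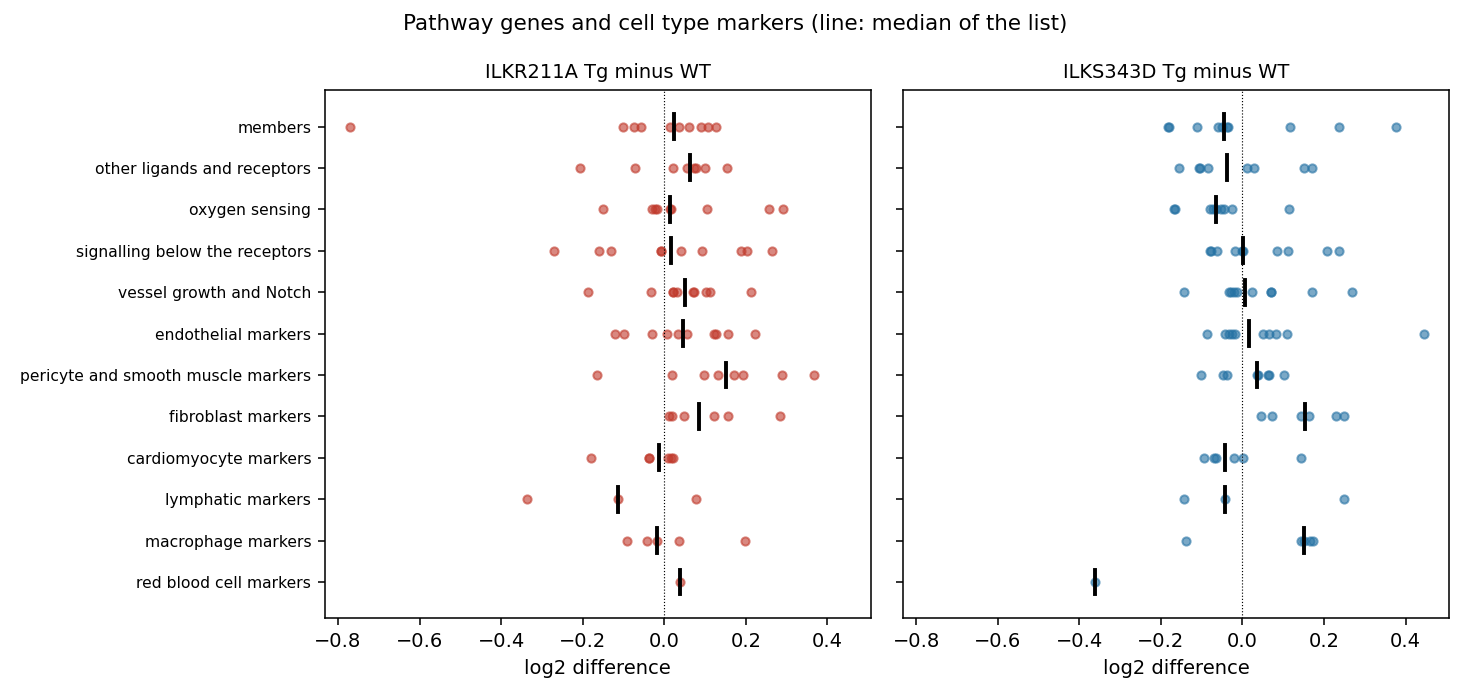
Log2 difference (x axis) of each tested gene in the members, the pathway lists and the marker lists (y axis), for R211A minus WT (left) and S343D minus WT hearts (right); each dot is 1 gene and the black line is the median of its list. Angpt1, at -0.77 on the left, lies farther from 0 than any other gene drawn, and this is the value it was selected on.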

How the data were processed

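The deposited values are MAS5 signal intensities of Affymetrix mouse arrays on a linear scale, which the authors scaled to a mean of 150 on each array after trimming 2% at either end. The sources used here do not give detection calls or the version of MAS5. The 64 array controls were left out, which left 45037 probe sets, and log2 was taken with nothing added. The filter kept the upper 22519 of them by mean log2 signal, from 5.44 on (a signal of 43.5). The platform annotation assigns 34945 probe sets to 1 gene, 932 to several and 9160 to none, and for a gene with several probe sets the one of highest average stands for it. No genome build is named in the files, so coordinates are those of the RefSeq promoter table (GRCm38.p6).

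Groups were compared with limma 3.58.1 in R 4.3.3 (linear models, empirical Bayes with a trend, 3 genotype groups, 12 arrays, two-sided), and the WT sets with 4 groups. Benjamini-Hochberg adjusted p under 0.05 over all tested probe sets was called. The number of arrays limits the precision, and each array held the heart of a different mouse. The members and the gene lists were chosen with earlier results of these data known. Named genes are all members with all their probe sets, Ilk, the 5 genes most and least like Angpt1, and up to 3 genes per list with the smallest unadjusted p in the S343D comparisons; others named in the lists, namely Flt4, Ptprb, Epas1, Akt1 and Rgs5, and the tissue markers, were chosen for their roles or after their values were seen. Alternatives covered median centring, quantile normalization, an offset of 16, other filters and priors, weights per array, fits on the compared groups alone, the WT set used, a replicate block, each heart left out, the mean of a gene's probe sets, other thresholds and the methods' t-test. Same-numbered hearts of a line and the WT set in its range had correlated deviations (r 0.119 to 0.179 for R211A, 0.0709 to 0.209 for S343D), and other same-numbered pairs had r down to -0.20, so the numbers do not pair hearts across all groups. The procedure was tested on simulated data. Comparisons by myocardial infarction were left out because no label names an operation, although the methods of the paper describe R211A genotypes with and without it for these hybridizations. Figures were drawn with matplotlib 3.10.9.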

Additional observations from a re-analysis of the deposited data

Results flagged for a closer look

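Angpt1 on 1439066_at is listed because its R211A minus S343D difference, -1.15 on the log2 scale, was past the adjusted threshold over all probe sets. The R211A hearts had 408, 340 and 316, the S343D hearts 838, 809 and 701, and the WT hearts between 493 and 742. Set against the WT set in the same range of the heart numbers, R211A was -0.65 and S343D 0.25, a difference of -0.91 (SE 0.167) that did not pass over all probe sets. Angpt1 was selected on the R211A hearts, so its listing and these values are a description, and no p is given. In WT hearts, the group of 6, no member probe set had a heart that stood apart from the others by Dixon's test.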

How the results depend on the processing

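The count of called members in R211A against WT hearts was 1 in the fit described and 0 against the second WT set alone and with the methods' t-test, and it lay between 0 and 1 with each heart left out, at 0 without R211A replicate 2 or 3. Between the lines the count of 1 became 0 when each line was set against the WT set of its range and with the methods' t-test, 2 at an unadjusted p under 0.05, and stayed at 1 with each heart left out. In S343D against WT hearts it was 0 except for 2 at an unadjusted p under 0.05. Between the WT sets it was 0 under all 26 alternatives. The causes were not tested.

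The Angpt1 difference of -0.77 in R211A minus WT hearts lay between -0.88 and -0.64 under 25 alternatives, and between -0.88 and -0.69 with each heart left out. The median member difference lay between -0.03 and 0.07 in R211A and between -0.14 and 0.06 in S343D hearts with each heart left out, so its sign is not settled in either line. With the replicate number as a replicate block the counts were 1, 0, 1 and 0 for R211A against WT, S343D against WT, R211A against S343D and the second against the first WT set, and Angpt1 was again at -0.77. A replicate block within each range of heart numbers, chosen after seeing the data, gave 1 and 0 for the first 2 of these and -0.65 for Angpt1. For R211A this is the same difference as against the second WT set alone, where the count without a block was 0. The other block changed no count. Angpt1 was selected on R211A against WT hearts, so nothing is read from its call with or without a block. The signal of Angpt2 is close to the filter, and its probe set and that of Vegfc were left out by the filter at the 75th percentile. With 3 hearts per line the printed intervals are wide, and where one holds 0, a difference of either sign within it remains possible.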
